A study of Mus musculus with 100 samples.

Results

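Imprinted genes are genes of which mainly the copy inherited from 1 parent is transcribed. A list of 37 such genes was read in all 37 RNA libraries of mouse cells and embryos used here, and 36 of them were found among the 23109 genes of the tables. The genes were listed by name as known imprinted genes, and the list was chosen with earlier results of these data known. The transcript of each was chosen by its read total over all libraries, the transcript with the most reads standing for the gene. H19 was not matched by accession and is not analysed here. Levels are given as CPM, reads per 1000000 reads assigned to genes. Fold changes are on the log2 scale from fits that also rescale libraries by the trimmed mean of M-values (TMM factors of 0.881 to 1.055 in neural libraries), so a small change can differ in sign from the CPM.

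The series is about the methyltransferase activities of MLL3 and MLL4, histone H3 lysine-4 methyltransferases also called KMT2C and KMT2D. All cultured cells lack Mll3: flox cultures are Mll3-/-;Mll4flox/flox and KI cultures Mll3-/-;Mll4KI/KI, and the labels do not spell out KI. KI cells come from clones 27 and 48, each with 1 library in every culture (pairs of KI values are given in this order), so no KI culture rests on more than these clones. The 7 cultures were embryonic stem cells (ESCs) in 2i and LIF, embryoid bodies (EBs, floating aggregates) at days 4 and 10, neural cultures taken as progenitors (day 8) or as neurons (day 16), trophectoderm (TE) cultures at day 6 made with inducible CDX2 from a lentivirus, and extraembryonic endoderm (ExEn) cultures at day 5 made with retinoic acid and Activin A. Flox had 1 library in ESCs and on each EB day and 2 in the other cultures, 11 in all beside 14 KI libraries. The 12 whole embryos, 3 per group, were Mll3flox/KI;Mll4flox/KI;Sox2-Cre (KI) or Mll3flox/KI;Mll4flox/+;Sox2-Cre (control) at E8.5 and E9.5. Sox2-Cre acts in the epiblast, so tissue from other lineages keeps its floxed alleles, and both groups carry an Mll3 KI allele. Reads were not assigned to parental alleles, and every value sums both copies. In bulk RNA, fewer cells of a type and less RNA per cell cannot be told apart.

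Imprinting rests on DNA methylation set in only the egg or only the sperm at imprinting control regions, each of which governs a cluster of genes. ZFP57 and TRIM28 protect this methylation in the early embryo. Many paternally expressed genes, such as Igf2, Dlk1, Peg3 and Peg10, favour growth of the fetus or placenta, and many maternally expressed ones, such as Cdkn1c, Phlda2, Grb10 and Igf2r, restrain it. Several clusters hold a long noncoding RNA made from 1 parental copy: Meg3, Rian and Mirg from the maternal copy of the Dlk1-Meg3 cluster, Kcnq1ot1 and Airn from the paternal copy of theirs.

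The members that differed in the test between the KI clones, Meg3 and Rian, are maternal RNAs of the Dlk1-Meg3 cluster. The windows at their starts are printed here, with that of Mirg, a maternal RNA of the cluster outside the list of members. These windows hold 250 bases before and 50 after the start given by RefSeq on build GRCm38.p6, plus strand, in lower case. Capitals mark the hexamer TGCCGC, the core of ZFP57 sites, or its reverse complement GCGGCA.
Meg3, chr12:109540746-109541045: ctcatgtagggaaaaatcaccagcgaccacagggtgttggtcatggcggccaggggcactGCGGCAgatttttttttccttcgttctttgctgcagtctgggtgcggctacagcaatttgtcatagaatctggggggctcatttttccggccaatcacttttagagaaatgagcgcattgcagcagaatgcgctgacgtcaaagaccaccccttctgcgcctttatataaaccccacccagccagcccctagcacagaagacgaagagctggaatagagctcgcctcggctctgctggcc
Rian, chr12:109603695-109603994: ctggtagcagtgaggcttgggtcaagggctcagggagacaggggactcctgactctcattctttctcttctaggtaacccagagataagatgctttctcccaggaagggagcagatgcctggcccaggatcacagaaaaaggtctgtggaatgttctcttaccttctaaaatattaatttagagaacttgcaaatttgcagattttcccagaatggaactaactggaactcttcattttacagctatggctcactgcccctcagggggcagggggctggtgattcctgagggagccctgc
Mirg, chr12:109734731-109735030: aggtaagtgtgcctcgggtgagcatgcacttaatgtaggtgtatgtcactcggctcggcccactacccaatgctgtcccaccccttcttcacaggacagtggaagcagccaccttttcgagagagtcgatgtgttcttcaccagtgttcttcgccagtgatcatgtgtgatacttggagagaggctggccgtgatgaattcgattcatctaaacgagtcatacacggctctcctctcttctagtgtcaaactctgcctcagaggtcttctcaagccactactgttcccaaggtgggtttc
RefSeq gives Meg3 a further start downstream, whose window is not printed. The Meg3 window held 13 CG dinucleotides and 1 hexamer, on the strand opposite to the gene. The Rian window held 0 CG dinucleotides, as did 5.43% of all 32851 windows, and the Mirg window held 10. Neither of these held the hexamer. Of 49 windows found for 30 listed genes, 13 (26.5%) held the hexamer on either strand, beside 3813 (11.6%) of all windows, and the medians were 14 and 7 CG dinucleotides. Genes with several starts count more than once, and some of their windows overlap.

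Clone 48 had almost no Meg3 or Rian RNA in any of the 7 cultures, while clone 27 and the flox cells had both. In ESCs, Meg3 stood at 79.0 CPM in flox, 159.5 in clone 27 and 0.799 in clone 48. At EB day 4 the values were 204, 300.5 and 0.679 CPM, and at EB day 10 355, 539 and 0.75 CPM. Clone 27 was the highest library on each of these days and clone 48 the lowest. Neural progenitors held 96.9 and 98.3 CPM in flox, 100.1 in clone 27 and 1.80 in clone 48. Neurons held 1023 and 937 CPM in flox, 2750 in clone 27, the highest level of any library, and 3.86 in clone 48. In TE cultures flox held 170.5 and 162 CPM and clone 27 51.4, and in ExEn cultures flox held 243 and 227 CPM and clone 27 376. Clone 48 had 0 Meg3 reads in both cultures. With a floor of 3 reads per library, clone 27 was at least 472-fold higher in TE and at least 2481-fold higher in ExEn, and in the other cultures it was 55.6 to 719 times as high as clone 48.

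Rian, a host of small nucleolar RNAs downstream of Meg3, was likewise lowest in clone 48. In flox, clone 27 and clone 48, it stood at 126, 217 and 0.252 CPM in ESCs, at 229.5, 355 and 0.724 at EB day 4 and at 196, 405 and 2.83 at EB day 10. In the neural and extraembryonic cultures the flox libraries held 53.3 and 53.4 CPM (progenitors), 172 and 146 (neurons), 107 and 117 (TE) and 248 and 251 (ExEn). Clone 27 held 52.0, 535, 37.7 and 317 CPM there, and clone 48 0.921, 1.85, 0.363 and 0.0505. In every culture clone 48 lay below all other libraries.

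Over the 7 cultures, with the culture as a term of the fit, clone 48 was lower than clone 27 for Meg3 (log2 fold change -8.56 ± 0.49, adjusted p = 1.66e-05, edgeR quasi-likelihood test; ± is the SE) and Rian (-7.88 ± 0.36, adjusted p = 3.04e-06). These were the 2 members called of 36, both lower, beside 0.143% of all genes called and 0.119% called lower. Of the 24 genes called, 4 (0.0238% of all) were higher in clone 48, and 6 lie between Dlk1 and Dio3 in the gene table: Meg3, Rian, Mirg, Mir770, Mir1906-1 and AF357359. The last 3 are short entries of the same stretch and can share reads with the longer RNAs. Mir1906-2, a copy on the X chromosome, had the same value as Mir1906-1, and the reads of the copies cannot be told apart. The neighbours, Peg13, Emc2 and the Y-linked genes below were singled out after their values were seen.

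Mirg, a microRNA-bearing RNA of the same cluster outside the list of 37, was also lower in clone 48 (-6.71 ± 0.35, adjusted p = 3.04e-06). It held 2.46 to 15.0 CPM in flox libraries, 2.54 to 23.9 in clone 27 and 0 to 0.5 in clone 48. Rtl1, a paternally expressed retrotransposon-derived gene of the placenta in the same cluster, was low in clone 48 only in some cultures. It held 3.06 CPM in clone 27 and 0.0841 in clone 48 in ESCs, 5.39 and 0.226 at EB day 4, and 7.08 and 0 in ExEn. At EB day 10 it held 6.60 and 11.3 CPM, and in neurons 15.4 and 13.4, so the clones were not in 1 order, and the difference over cultures was not called (-1.49 ± 0.73, adjusted p = 0.66). Rtl1 has an antisense partner on the maternal copy, and no strand setting is given, so their reads cannot be told apart. Dlk1, the paternally expressed growth regulator at the other end of the cluster, differed between clones by 1.07-fold (TE) to 2.39-fold (EB day 10).

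Peg13, a paternally expressed noncoding RNA on chromosome 15 from a list of 25 further imprinted genes, had the reverse arrangement. Clone 27 held 0 to 0.87 CPM. Clone 48 held 3.53 CPM in ESCs, 6.02 and 19.9 in EBs, 43.8 in progenitors, 485 in neurons, 2.10 in TE and 8.79 in ExEn. Flox libraries held 2.38, 5.41 and 8.57 CPM in ESCs and EBs, 41.4 and 39.2 in progenitors, 219.6 and 206 in neurons, 2.80 and 4.07 in TE and 7.31 and 7.56 in ExEn. Clone 48 was higher than clone 27 (8.33 ± 0.32, adjusted p = 5.9e-07), and clone 27 lay below every other library in each culture. Trappc9, which surrounds Peg13, differed between clones by 1.00-fold to 1.50-fold. Clone 48 was also higher in Emc2 (1.04 ± 0.08, adjusted p = 4.76e-05) and lower in 6 Y-linked genes. The sum of 4 Y-linked genes was 16.8 to 39.2 CPM in clone 48, 106.6 to 225 in clone 27 and 73.0 to 199 in flox. The part of this difference in the imprinted genes was not tested.

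**Figure D1:**
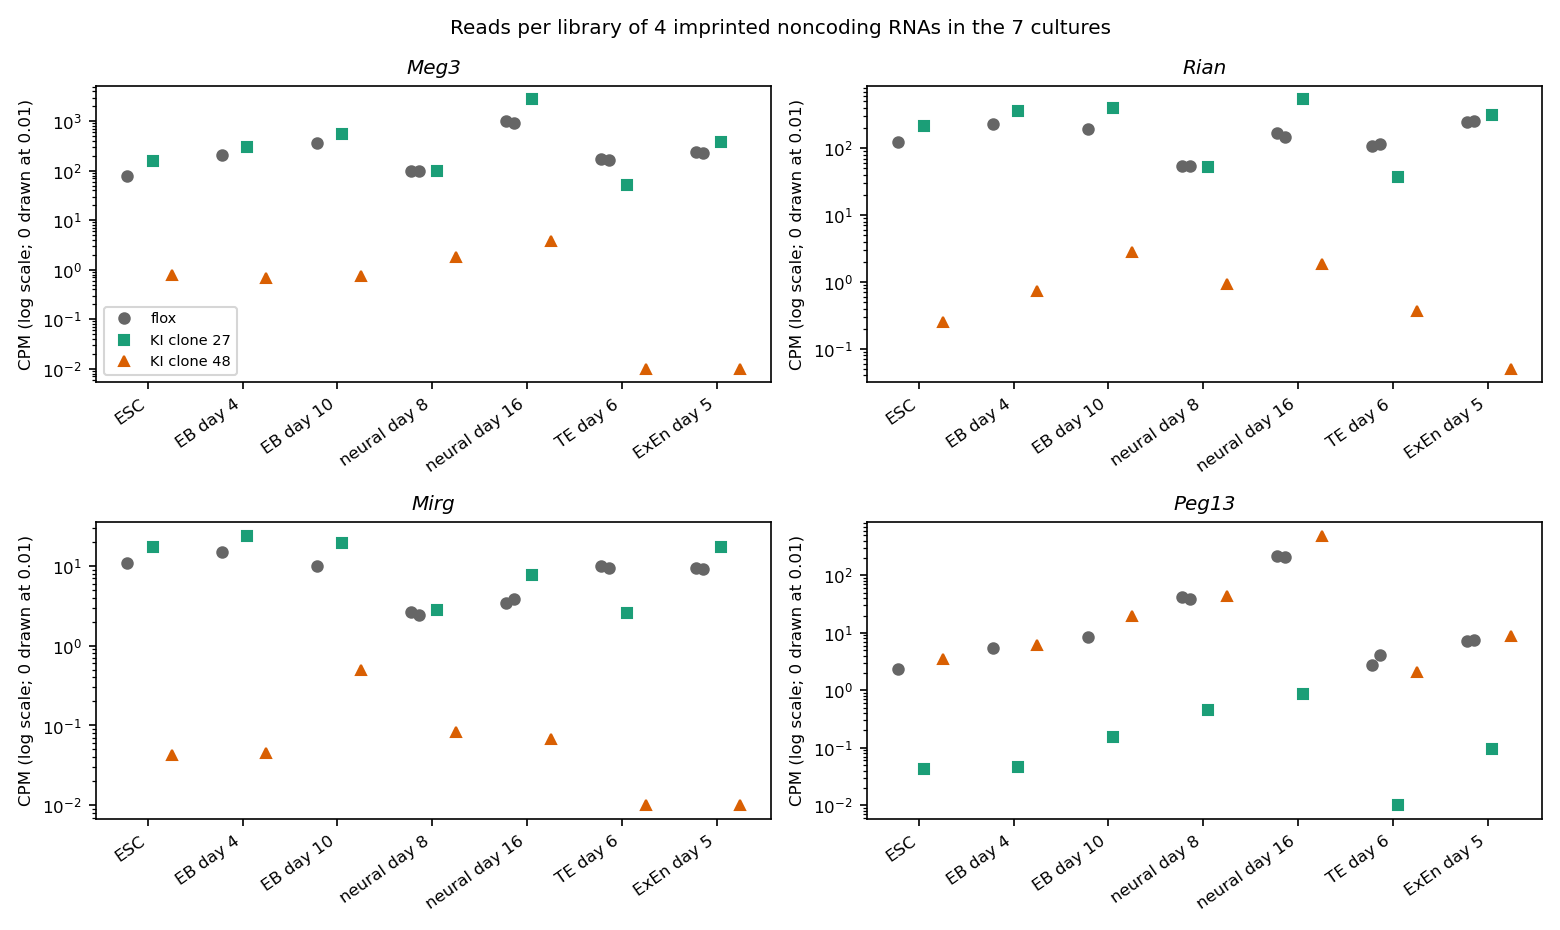
CPM (log axis; 0 is drawn at 0.01) of Meg3, Rian, Mirg and Peg13 in each library of the 7 cultures, with flox as circles, KI clone 27 as squares and KI clone 48 as triangles. The triangles lie below the other symbols in all 7 cultures for Meg3, Rian and Mirg, and the squares do so for Peg13.

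No test of KI against flox called Meg3 or Rian in a culture, and the clones lay far apart. Meg3 was estimated at -0.91 ± 2.76, adjusted p = 0.89 in progenitors, 0.67 ± 2.71, adjusted p = 0.87 in neurons, -2.65 ± 2.47, adjusted p = 0.44 in TE and -0.36 ± 2.24, adjusted p = 0.93 in ExEn. Without clone 48 the values were 0.063, 1.68, -1.66 and 0.64, and without clone 27 they were -5.72, -7.76, -14.85 and -15.49, none of them called. These last values rest on 1 KI library, and those of TE and ExEn on 0 reads in it, so their size depends on the fit. In ESCs and EBs clone 27 alone stood at 0.69 ± 0.12 (adjusted p = 0.55) and clone 48 alone at -7.98 ± 0.46 (adjusted p = 0.12) against flox for Meg3, alternatives chosen after seeing the data.

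The other members were not called between clones. The median distance between clones over the members ran from 0.14 to 0.23 on the log2 scale (0.5 CPM added) in the 7 cultures. Beyond Meg3 and Rian, members at least 2-fold apart were Rtl1 in ESCs, EB day 4 and ExEn, Dcn, Dlk1 and Nnat at EB day 10, Magel2 in TE and Usp29 in ExEn.

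**Figure D2:**
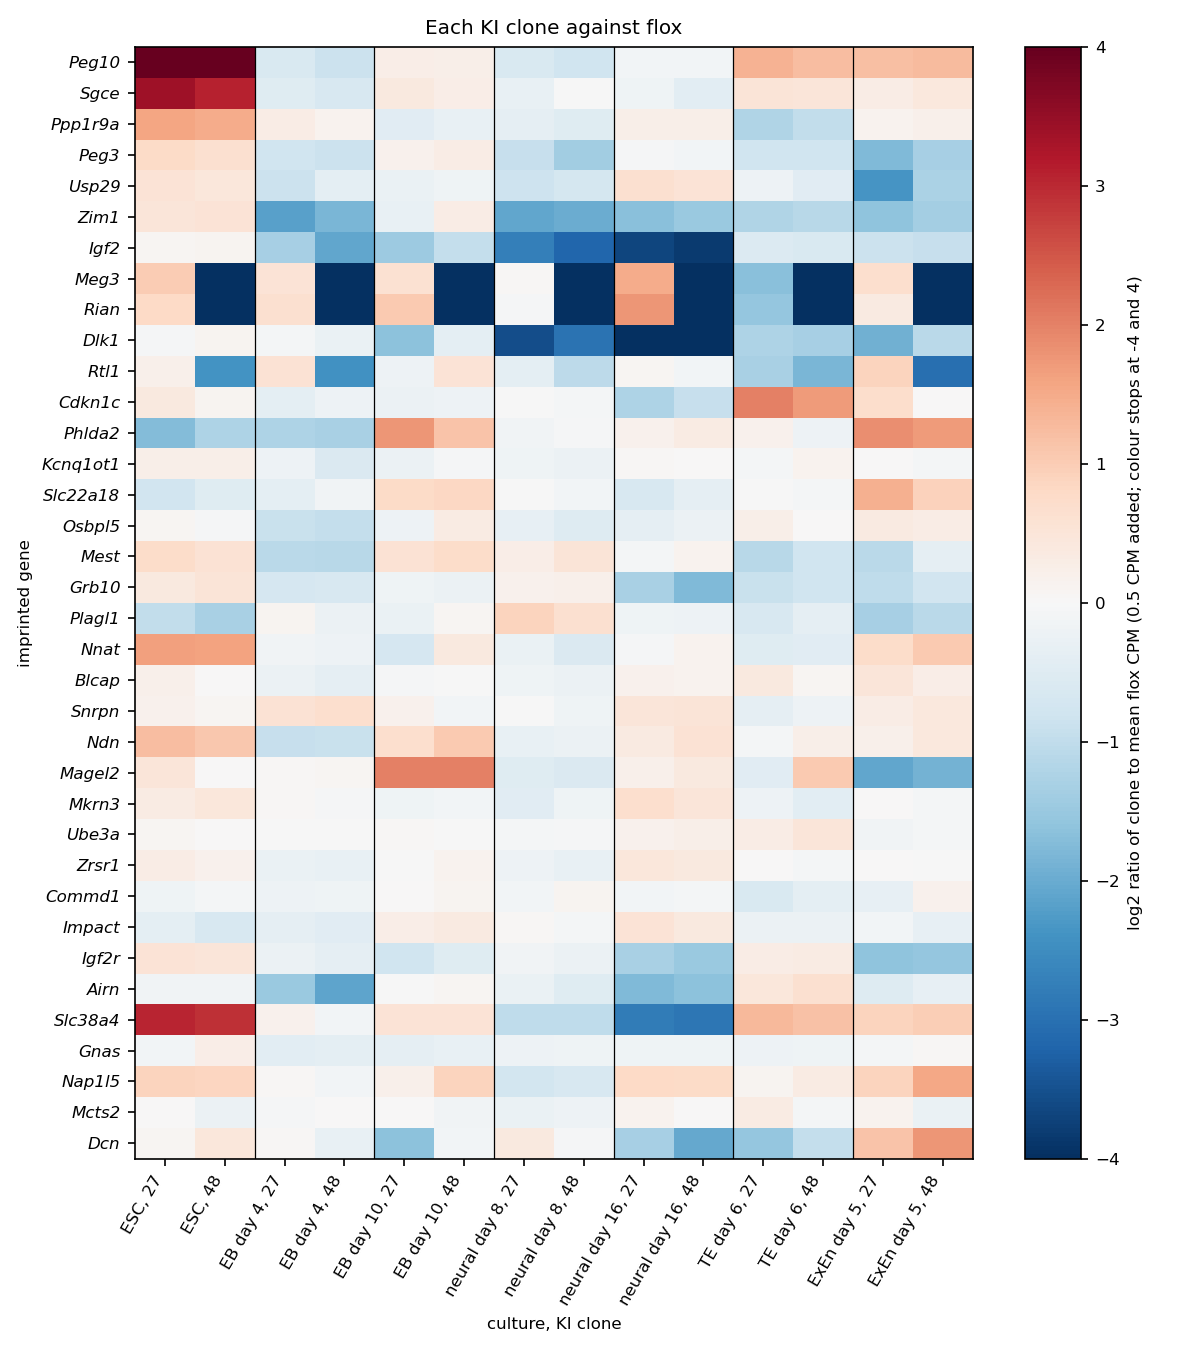
Log2 ratio of each KI clone to the mean of the flox libraries (0.5 CPM added, colours stop at -4 and 4) for 36 imprinted genes in 7 cultures, with clones 27 and 48 side by side. Meg3 and Rian are dark blue in each clone 48 column, while Igf2 and Dlk1 are blue in both clones in the neural columns and Peg10 and Slc38a4 are red in both clones in ESCs, TE and ExEn.

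Mcts2 was called in none of the 7 comparisons of KI with flox or control and held 7.95 to 16.9 CPM. The list was chosen with earlier results of these data known, so the shares below are a description. In progenitors 15 members were called (41.7%, beside 19.5% of all genes), 2 higher and 13 lower, beside 6.3% and 13.2% of all genes. In neurons 20 were called (55.6%, beside 46.9%), 11 higher and 9 lower (27.1% and 19.7% of all). TE called 22 (61.1%, beside 50.9%), 8 higher and 14 lower (26.7% and 24.2% of all). ExEn called 22 (61.1%, beside 35.5%), 12 higher and 10 lower (18.1% and 17.4% of all). The neuron and TE shares are thus near those of all genes. Fewer members were called in progenitors without any 1 of the 4 libraries, and in ExEn without either flox library or clone 48. Embryos called 9 at E8.5 (25%, beside 5.46%), 8 higher and 1 lower (3.63% and 1.83% of all). Leaving out 1 embryo gave 4 to 9 at E8.5, and a fit of the E8.5 embryos alone gave 5. At E9.5 the embryos called 15 (41.7%, beside 29.5%), 14 higher and 1 lower (14.6% and 14.9% of all). At least a 2-fold change was called for 4 members in progenitors (8.09% of all genes), 8 in neurons (12.2%), 7 in TE (16.4%), 12 in ExEn (11%), 3 at E8.5 (1.39%) and 1 at E9.5 (5.96%). The EB course, with the day as a term, called 0 by edgeR beside 0.707% of all genes, with 2 members at an unadjusted p under 0.05. DESeq2 called 1 there, Igf2 (-1.02 ± 0.29, adjusted p = 0.0149). Median changes of the members were -0.23, 0.20, -0.18 and -0.06 in the 4 cultures in this order and 0.10 and 0.09 in the embryos, beside medians of all genes of 0.00, 0.09, 0.01, 0.00, -0.01 and 0.01.

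By the parental copy known to be expressed, 21 members are paternal, 8 maternal and 7 depend on the tissue. Paternal members were 2 higher and 10 lower in progenitors, 8 and 4 in neurons, 4 and 8 in TE, and 7 and 7 in ExEn. Of all genes, 6.3% were called higher and 13.2% lower in progenitors, 27.1% and 19.7% in neurons, 26.7% and 24.2% in TE, 18.1% and 17.4% in ExEn, 3.63% and 1.83% at E8.5 and 14.6% and 14.9% at E9.5. Grb10 and Igf2r, maternal in most tissues but not in neurons, count among the members that depend on the tissue. Both were called lower in neurons and ExEn, and these calls are not in the maternal counts. In embryos 4 of 8 maternal members rose at E8.5 and 5 at E9.5 with 0 lower, and of the 21 paternal members 4 and 8 rose and 1 fell at each stage. With the embryo number as a block, Meg3 (maternal) was also called higher and Airn (paternal) lower at E8.5. At E9.5 the block removed the call of Slc38a4 (paternal, higher). Maternal members were 0 higher and 3 lower in progenitors, 1 and 2 in neurons, 1 and 2 in TE and 3 and 1 in ExEn, and tissue-dependent ones 0 and 0, 2 and 3, 3 and 4, and 2 and 2.

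**Figure D3:**
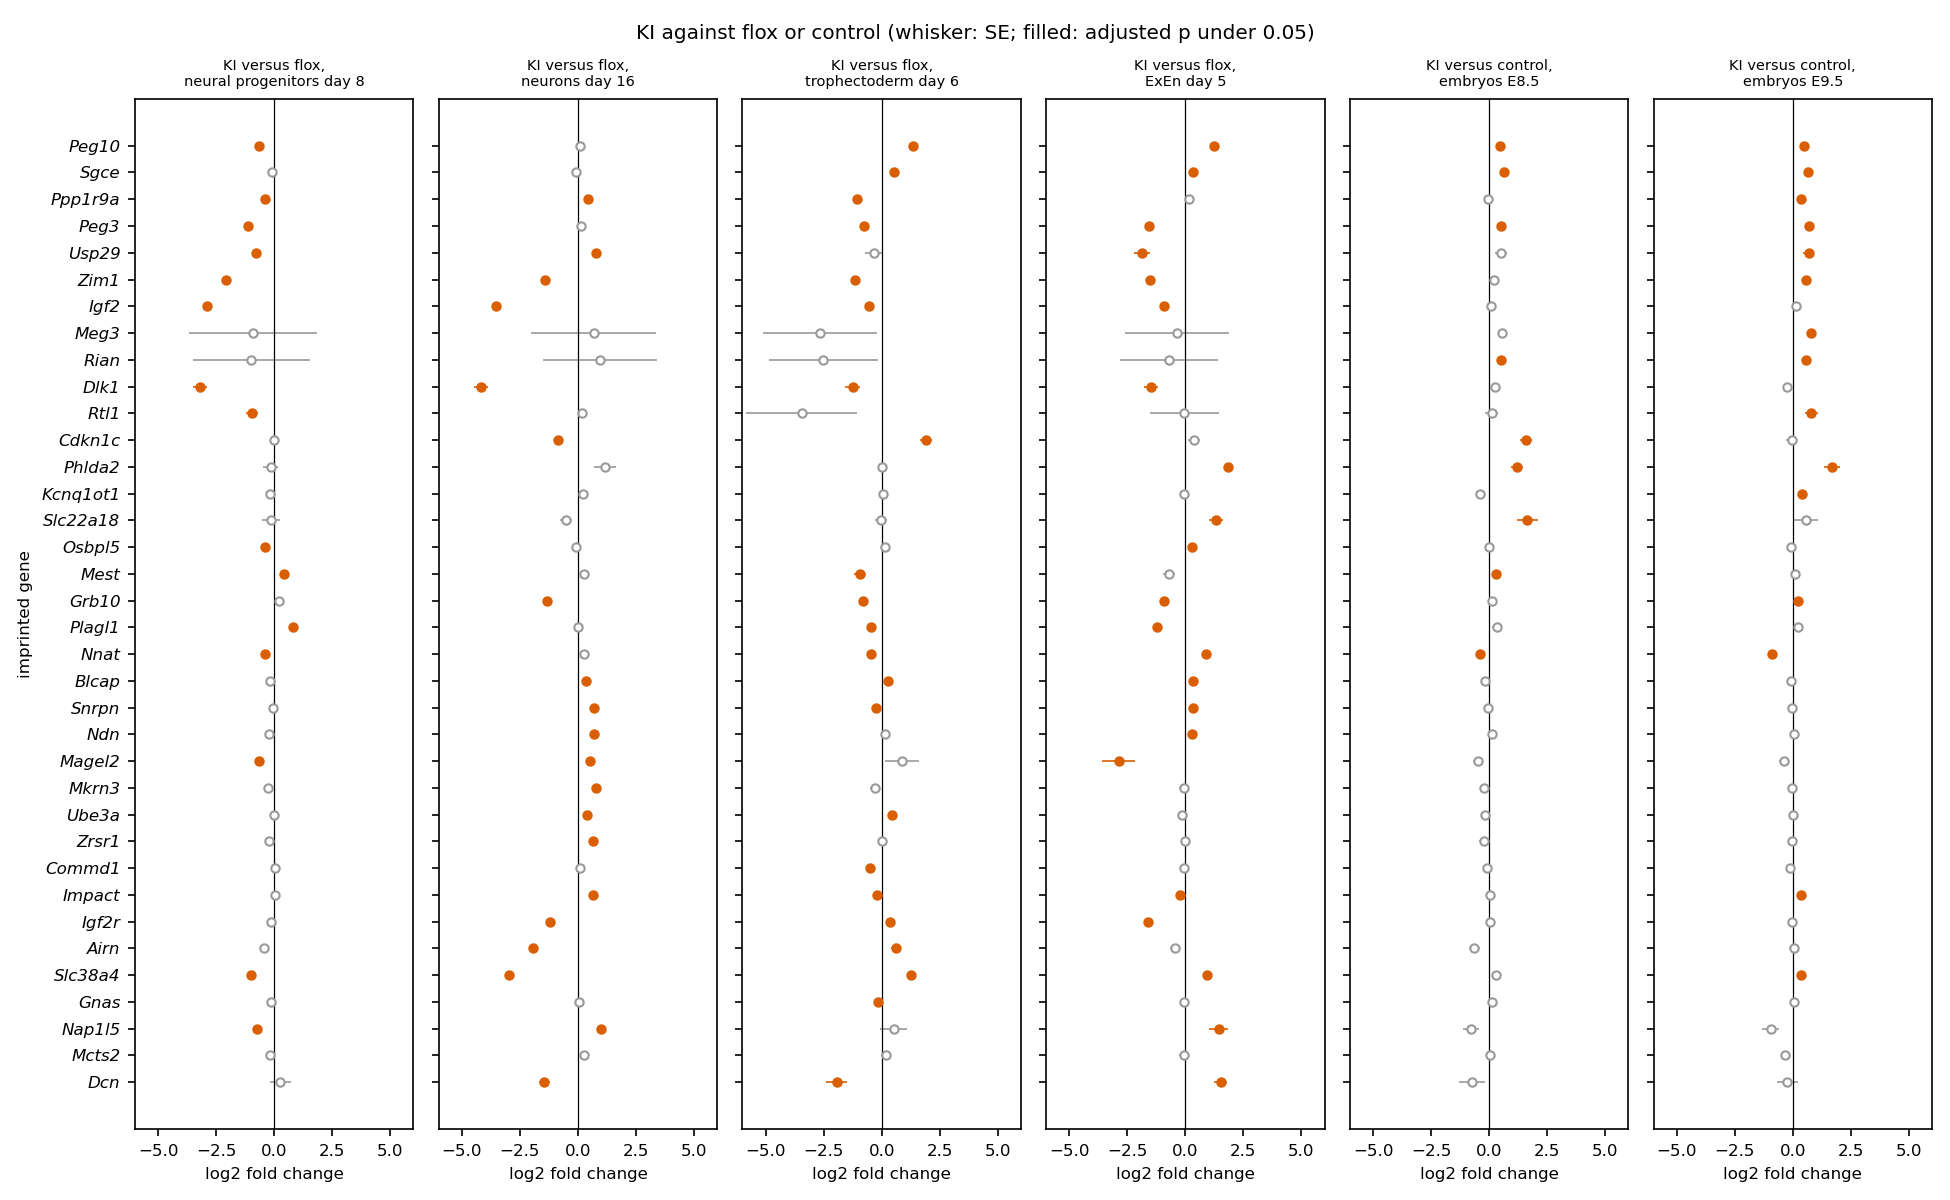
Log2 fold change of KI against flox or control with its SE for 36 imprinted genes in 4 cultures and at 2 embryonic stages, with filled points for an adjusted p under 0.05. Igf2 and Dlk1 are the filled points farthest left in both neural panels, and Nnat is the 1 filled point left of 0 in each embryo panel.

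Igf2, a fetal growth factor made from the paternal copy, and Dlk1 were the members that fell most in neural cultures. Igf2 held 1267 and 1241 CPM in flox progenitors and 189.9 and 139 in KI (-2.90 ± 0.14, adjusted p = 8.97e-08). In neurons it held 1328 and 1222 CPM in flox and 99.7 and 90.1 in KI (-3.55 ± 0.14, adjusted p = 8.21e-09). The decrease was smaller in TE, from 2007 and 1989 to 1359 and 1295 CPM (-0.56 ± 0.04, adjusted p = 3.82e-08), and in ExEn, from 2485 and 2434 to 1356 and 1309.5 CPM (-0.91 ± 0.04, adjusted p = 5.76e-10). The groups did not overlap in these 4 cultures. ESCs of both genotypes held 6.24 to 6.81 CPM. Flox held 217 CPM at EB day 4 and 8743 at day 10, the highest Igf2 level of any library, and the clones held 85.3 and 50.9 and then 3203 and 4529. In embryos the groups overlapped, with 1602, 1846 and 1700.3 CPM in controls and 1696, 1624 and 2144 in KI at E8.5, and 1296, 1444 and 1712 in controls and 1569, 1659 and 1671 in KI at E9.5.

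Dlk1 fell in the same cultures. Progenitors held 439.7 and 441 CPM in flox and 37.4 and 56.3 in KI (-3.20 ± 0.30, adjusted p = 0.00034), and neurons 384 and 445 in flox and 14.9 and 24.8 in KI (-4.18 ± 0.31, adjusted p = 5.92e-05). TE cultures held 78.6 and 84.2 CPM in flox and 34.5 and 32.3 in KI (-1.25 ± 0.33, adjusted p = 0.0339), and ExEn cultures 651 and 686 in flox and 175 and 317 in KI (-1.47 ± 0.31, adjusted p = 0.0244). Both clones were below flox in each of these cultures. The TE call was lost without any 1 of the 4 libraries, and the ExEn call without either flox library and with only the libraries compared. At EB day 10 Dlk1 stood at 5495 CPM in flox, 1763 in clone 27 and 4208 in clone 48, and at EB day 4 and in ESCs it stayed at or below 14.1 CPM. In embryos Dlk1 was not called, with 259.8, 323 and 284 CPM in controls and 330.3, 281 and 438 in KI at E8.5 (0.27 ± 0.15, adjusted p = 0.35), and 439.7, 499 and 544 and, below all of these, 396, 414 and 425 at E9.5 (-0.27 ± 0.14, adjusted p = 0.2).

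Markers of other cell types also differed in these cultures. The sum of 8 mesodermal and mesenchymal markers was 338 to 339.7 CPM in flox progenitors and 139 to 185 in KI, 3168 to 3404 and 661 to 829.5 in neurons, and 1980 to 2067 and 308 to 491 in ExEn. In TE it was 77.1 to 78.3 CPM in flox and 68.5 to 126 in KI. At EB day 10 it was 10081 CPM in flox and 4248 and 9751 in the clones. The sum of 6 heart markers was 3.56 to 3.80 CPM in flox and 1.06 to 1.08 in KI progenitors, 4.71 to 7.07 and 4.51 to 5.70 in neurons, 28.6 to 31.6 and 5.196 to 5.48 in TE, and 71.0 to 79.0 and 51.8 to 98.0 in ExEn. Mesp1 was at 0 reads in ExEn cultures of both genotypes. The sum of 11 extraembryonic endoderm markers was 121 to 122 CPM in flox progenitors and 38.1 to 43.0 in KI, and 84.8 to 86.2 and 15.5 to 25.3 in neurons. The sum of 6 blood markers was 11.4 to 11.7 CPM in flox progenitors and 0.666 to 0.941 in KI. The part of such cells in Igf2 and Dlk1 was not tested.

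Zim1, a maternally expressed zinc finger gene of the Peg3 cluster, fell at least 2-fold in all 4 tested cultures, as Dlk1 did. It went from 33.6 and 32.8 CPM in flox to 7.49 and 8.08 in KI in progenitors (-2.06 ± 0.13, adjusted p = 5.4e-07) and from 32.4 and 27.3 to 9.03 and 10.4 in neurons (-1.41 ± 0.12, adjusted p = 3.11e-06). TE cultures went from 21.3 and 18.5 to 8.39 and 8.89 CPM (-1.17 ± 0.13, adjusted p = 3.36e-06) and ExEn cultures from 62.9 and 56.9 to 19.3 and 22.8 (-1.54 ± 0.12, adjusted p = 2.19e-07). In E9.5 embryos Zim1 rose instead, from 23.5, 26.2 and 28.4 to 33.5, 42.9 and 38.8 CPM (0.56 ± 0.12, adjusted p = 0.00179), and at E8.5 the groups overlapped.

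Peg3, the paternally expressed zinc finger gene beside it, fell in progenitors from 582 and 588 to 306 and 223 CPM (-1.11 ± 0.13, adjusted p = 5.27e-05) and in ExEn from 3492 and 3406 to 1008 and 1367 (-1.57 ± 0.15, adjusted p = 0.00145). In TE it fell from 1207 and 1213 to 691 and 703 CPM (-0.76 ± 0.15, adjusted p = 0.0117), a call lost without either clone. Neurons held 997 and 990.1 CPM in flox and 972 and 912 in KI (0.13 ± 0.12, adjusted p = 0.43), slightly lower in CPM and slightly higher after TMM scaling. In embryos Peg3 rose, from 662, 655 and 638 to 950.5, 802 and 997 CPM at E8.5 (0.49 ± 0.07, adjusted p = 0.000322) and from 689, 758 and 689.9 to 1050.3, 1213 and 1236 at E9.5 (0.71 ± 0.07, adjusted p = 8.45e-07), with no overlap at either stage.

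Usp29, which starts beside Peg3 on the other strand, fell in progenitors from 10.2 and 10.3 to 5.58 and 6.08 CPM (-0.78 ± 0.13, adjusted p = 0.000769) and in ExEn from 12.3 and 11.8 to 1.92 and 4.75 (-1.89 ± 0.35, adjusted p = 0.000937). In neurons it rose from 108 and 85.1 to 151 and 140.4 CPM (0.79 ± 0.11, adjusted p = 0.000102). Of the 36 members, 25 had effects of KI that differed between day 16 and day 8, 17 more positive and 8 more negative at day 16, beside 33.2%, 19.2% and 14% of all genes. Among these were Usp29 (1.57 ± 0.17, adjusted p = 3.16e-05) and Peg3 (1.24 ± 0.18, adjusted p = 0.000274).

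Peg10, a retrotransposon-derived gene needed for the placenta, and Slc38a4, an amino acid transporter of placenta and liver, are paternally expressed and rose in both extraembryonic cultures. Peg10 went from 1793 and 1817 to 4744 and 4292 CPM in TE (1.36 ± 0.05, adjusted p = 1.37e-09) and from 2419.8 and 2384 to 5581 and 5816 in ExEn (1.22 ± 0.05, adjusted p = 6.21e-09). Slc38a4 went from 352 and 366 to 888 and 806 CPM in TE (1.27 ± 0.05, adjusted p = 1.23e-09) and from 1112 and 1114.3 to 2077 and 2200.3 in ExEn (0.91 ± 0.05, adjusted p = 3.55e-08). Every KI library lay above every flox library for both genes. In neural cultures Slc38a4 fell, from 46.9 and 46.6 to 23.0 and 23.1 CPM in progenitors (-0.99 ± 0.11, adjusted p = 3.26e-05) and from 16.4 and 13.6 to 1.72 and 1.60 in neurons (-2.98 ± 0.13, adjusted p = 1.77e-08). Peg10 fell in progenitors from 307 and 300.5 to 198 and 175 CPM (-0.67 ± 0.10, adjusted p = 0.00029) and was not called in neurons, where KI was lower in CPM but not after TMM scaling (0.10 ± 0.10, adjusted p = 0.41). In embryos Peg10 rose from 706, 792 and 774 to 1008, 932 and 1188 CPM at E8.5 (0.46 ± 0.08, adjusted p = 0.00241) and from 663, 655 and 575 to 815, 943 and 889 at E9.5 (0.48 ± 0.08, adjusted p = 0.000299).

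Both genes also stood apart in undifferentiated cells. Flox had 1 library there, single days were not tested, and the test over the EB course called neither gene. In ESCs Peg10 held 11.8 CPM in flox and 525 and 347 in the clones, and Slc38a4 held 29.2 in flox and 248 and 225. Sgce, a sarcoglycan gene that starts beside Peg10, held 0.423 CPM in flox and 9.16 and 7.27 in the clones. At EB day 4 flox was no longer the low library, with Peg10 at 956 CPM in flox and 621 and 525 in the clones and Slc38a4 at 145 in flox and 165 and 136 in the clones. Of the 36 members, 7 in ESCs were at least 2-fold from flox in both clones, beside 7.68% of all genes: Peg10, Sgce, Ppp1r9a, Nnat, Ndn and Slc38a4 higher (6, beside 5.18%) and Phlda2 lower (1, beside 2.5%). At EB day 4 there were 5, Zim1, Igf2, Phlda2, Mest and Airn, all lower, beside 5.88% of all genes in either direction and 4.43% lower. At EB day 10 there were 2, Phlda2 and Magel2, both higher, beside 7.42% in either direction and 3.5% higher. These shares are over genes with at least 1 CPM in 1 or more of the 3 libraries of that day, which 30, 34 and 36 members had. Sgce in ESCs reached 1 CPM in the clones alone and Airn at EB day 4 in flox alone, so each passed only through the group where it was high, and the counts are a description.

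In the extraembryonic cultures Sgce rose with Peg10, from 27.8 and 28.0 to 39.9 and 39.6 CPM in TE (0.54 ± 0.09, adjusted p = 0.000203) and from 26.6 and 27.4 to 33.6 and 36.6 in ExEn (0.35 ± 0.10, adjusted p = 0.0108), the latter call lost without either flox library or clone 48. Ppp1r9a, a neuronal scaffold gene of the same cluster, fell in TE from 55.2 and 56.7 to 23.8 and 28.0 CPM (-1.08 ± 0.09, adjusted p = 2.39e-07) and was not called in ExEn (0.14 ± 0.09, adjusted p = 0.24). Cell type markers differed there too. The sum of 9 trophoblast markers was 3376 to 3455 CPM in flox TE and 5889 to 6112 in KI, and 3139 to 3151 and 4201 to 5089 in ExEn, where Elf5 was at 0 reads in KI. Of these markers, 7 were called higher and 1 lower in TE, and 6 and 1 in ExEn. The list includes Cdx2, which TE cultures also carry in the lentivirus, so the TE sum can include its reads. It also includes Krt7, Krt8 and Krt18, and the sum in flox ExEn was near that in flox TE, so it does not mark trophoblast alone. The sum of 11 extraembryonic endoderm markers in ExEn was 1902 to 1908 CPM in flox and 232 to 238 in KI, with Ttr at 0 reads in KI. The sum of 8 pluripotency markers in TE was 1506 to 1517 CPM in flox and 445 to 588 in KI. Their part in the imprinted genes was not tested.

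**Figure D4:**
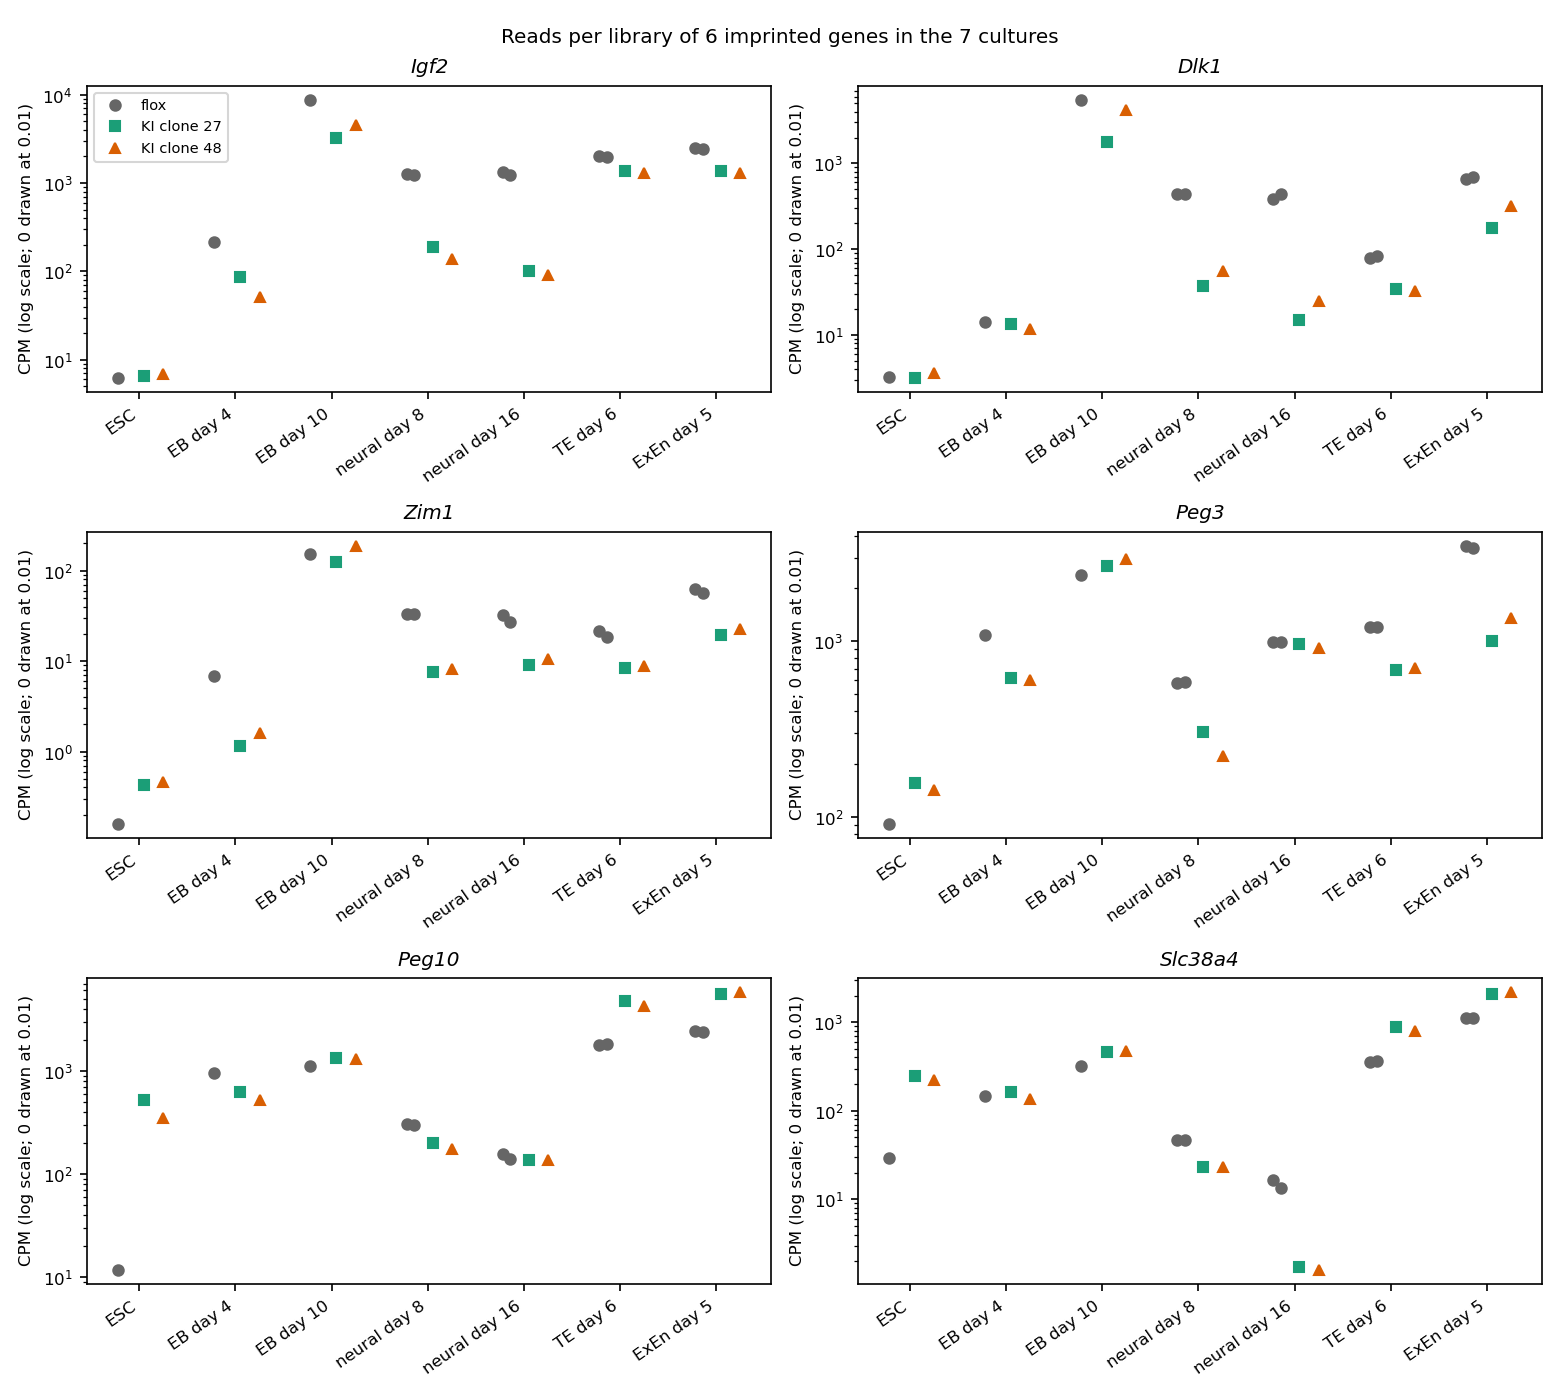
CPM (log axis) of Igf2, Dlk1, Zim1, Peg3, Peg10 and Slc38a4 in each library of the 7 cultures (circles flox, squares KI clone 27, triangles KI clone 48). Both clones lie below flox for Igf2 and Dlk1 in the neural, TE and ExEn cultures and above it for Peg10 and Slc38a4 in ESCs, TE and ExEn.

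The Kcnq1ot1 cluster on chromosome 7 holds maternally expressed growth inhibitors. Cdkn1c, an inhibitor of cyclin-dependent kinases, rose in TE from 329.6 and 320.4 to 1313 and 1056 CPM (1.90 ± 0.26, adjusted p = 0.00438) and held 193 and 185 CPM in flox and 308 and 193 in KI in ExEn (0.37 ± 0.26, adjusted p = 0.35). In neurons it fell from 254 and 340.3 to 126 and 155 CPM (-0.87 ± 0.14, adjusted p = 0.000439). At E8.5 the controls held 178, 333 and 179.9 CPM and the KI embryos 803, 604 and 662 (1.58 ± 0.25, adjusted p = 0.00999), with no overlap. A fit of the E8.5 embryos alone did not call it (1.59 ± 0.34, adjusted p = 0.0923). At E9.5 the groups overlapped, with 348, 370 and 306 CPM in controls and 318, 314 and 357 in KI. Of the members, 3 had effects that differed between the stages, 2 more positive and 1 more negative at E9.5, beside 6.63%, 3.39% and 3.24% of all genes, and 1 differed at least 2-fold, beside 2.07%. That was Cdkn1c, whose effects differed by -1.63 ± 0.35 (adjusted p = 0.0305), but not with the embryo number as a block (-1.69, adjusted p = 0.0547) or without any 1 of 9 embryos.

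Phlda2, which limits placental growth, rose in ExEn from 5.47 and 6.84 to 23.5 and 21.0 CPM (1.83 ± 0.16, adjusted p = 4.63e-06). It rose from 39.4, 67.4 and 35.4 to 121, 105 and 101 CPM at E8.5 (1.20 ± 0.25, adjusted p = 0.0307) and from 2.30, 1.85 and 3.85 to 7.99, 9.01 and 8.18 at E9.5 (1.67 ± 0.35, adjusted p = 0.00638), with no overlap. Slc22a18, a transporter gene beside it, rose in ExEn from 2.86 and 1.33 to 6.38 and 4.44 CPM (1.33 ± 0.31, adjusted p = 0.00373), a call lost without flox library 2, and at E8.5 from 0.647, 1.71 and 0.572 to 3.45, 2.95 and 2.98 (1.64 ± 0.46, adjusted p = 0.0422). The E8.5 calls of Phlda2 and Slc22a18 were each lost on leaving out any 1 embryo other than control 2, and that of Phlda2 also in a fit of the E8.5 embryos alone. Kcnq1ot1, the noncoding RNA of the paternal copy, was not called in any culture and rose at E9.5 from 16.1, 20.6 and 26.4 to 27.9, 30.0 and 25.3 CPM (0.40 ± 0.15, adjusted p = 0.0495), where the groups overlapped and the call was lost without any 1 of 4 embryos, with DESeq2 size factors, with transcripts summed and with only the libraries compared. Osbpl5, a lipid transfer protein gene, was called lower in progenitors (-0.41 ± 0.12, adjusted p = 0.033) and higher in ExEn (0.30 ± 0.10, adjusted p = 0.0258), both calls being lost without any 1 of the 4 libraries compared, and the former also with DESeq2 and with its size factors.

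In embryos the 8 members that rose at E8.5 were Peg10, Sgce, Peg3, Rian, Cdkn1c, Phlda2, Slc22a18 and Mest. The E8.5 call of Sgce was lost without control 1 or 3 or KI 3, with transcripts summed and in a fit of the E8.5 embryos alone. Meg3 held 201, 310 and 244 CPM in E8.5 controls and 320.4, 351 and 453 in KI (0.57 ± 0.17, adjusted p = 0.1), called with the embryo number as a block (0.58 ± 0.11, adjusted p = 0.00841) and without control 2 (0.75, adjusted p = 0.00991), and rose at E9.5 from 197, 213 and 243 to 359, 372 and 381 CPM (0.77 ± 0.17, adjusted p = 0.00989). Rian rose at both stages, from 289, 352 and 289 to 455, 376 and 484 CPM (0.50 ± 0.09, adjusted p = 0.00384) and from 256, 267 and 298 to 397, 412 and 412 (0.57 ± 0.09, adjusted p = 0.000234). No embryo lacked either RNA. Nnat, a paternally expressed gene of neural and endocrine cells, was the member that fell without the block, from 209, 246 and 229.9 to 155, 158 and 208 CPM at E8.5 (-0.39 ± 0.10, adjusted p = 0.0342) and from 376, 424 and 364 to 208, 225 and 202 at E9.5 (-0.88 ± 0.10, adjusted p = 1.79e-05). The groups did not overlap, and the E8.5 call was lost without any 1 of 4 embryos, with no filter on low counts and in a fit of the E8.5 embryos alone. With the embryo number as a block, 11 members were called at E8.5 in place of 9, Meg3 and, lower in KI, Airn (-0.64 ± 0.20, adjusted p = 0.049) being added.

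Sums of cell type markers also differed between embryo groups. Trophoblast markers summed to 642 to 785 CPM in E8.5 controls and 954 to 1150 in KI, and to 204 to 428 and 628 to 662 at E9.5. The sum of 6 blood markers was 713 to 1456 and 113 to 216 CPM at E8.5 and 3352 to 9226 and 615 to 3135 at E9.5. Extraembryonic endoderm markers summed to 232 to 663 CPM in E8.5 controls and 251 to 634 in KI, and to 136 to 145 and, without overlap, 313 to 451 at E9.5. The sum of 6 heart markers was 386 to 510.5 CPM in E9.5 controls and 942 to 1798 in KI, and that of 6 neuron markers 148 to 221 and 43.2 to 47.1. At E8.5, 2 of 9 trophoblast markers were called higher and 1 lower, and 3 of 11 extraembryonic endoderm markers higher. No blood marker was called at E8.5. At E9.5, 5 trophoblast, 4 extraembryonic endoderm and 6 heart markers were called higher, and 1 blood and 4 neuron markers lower. Of all genes, 3.63% and 1.83% were called higher and lower at E8.5, and 14.6% and 14.9% at E9.5. Y-linked RNA was found in 1 of 3 embryos in each group except E9.5 KI, with 0 of 3. The part of these values in the imprinted genes was not tested.

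**Figure D5:**
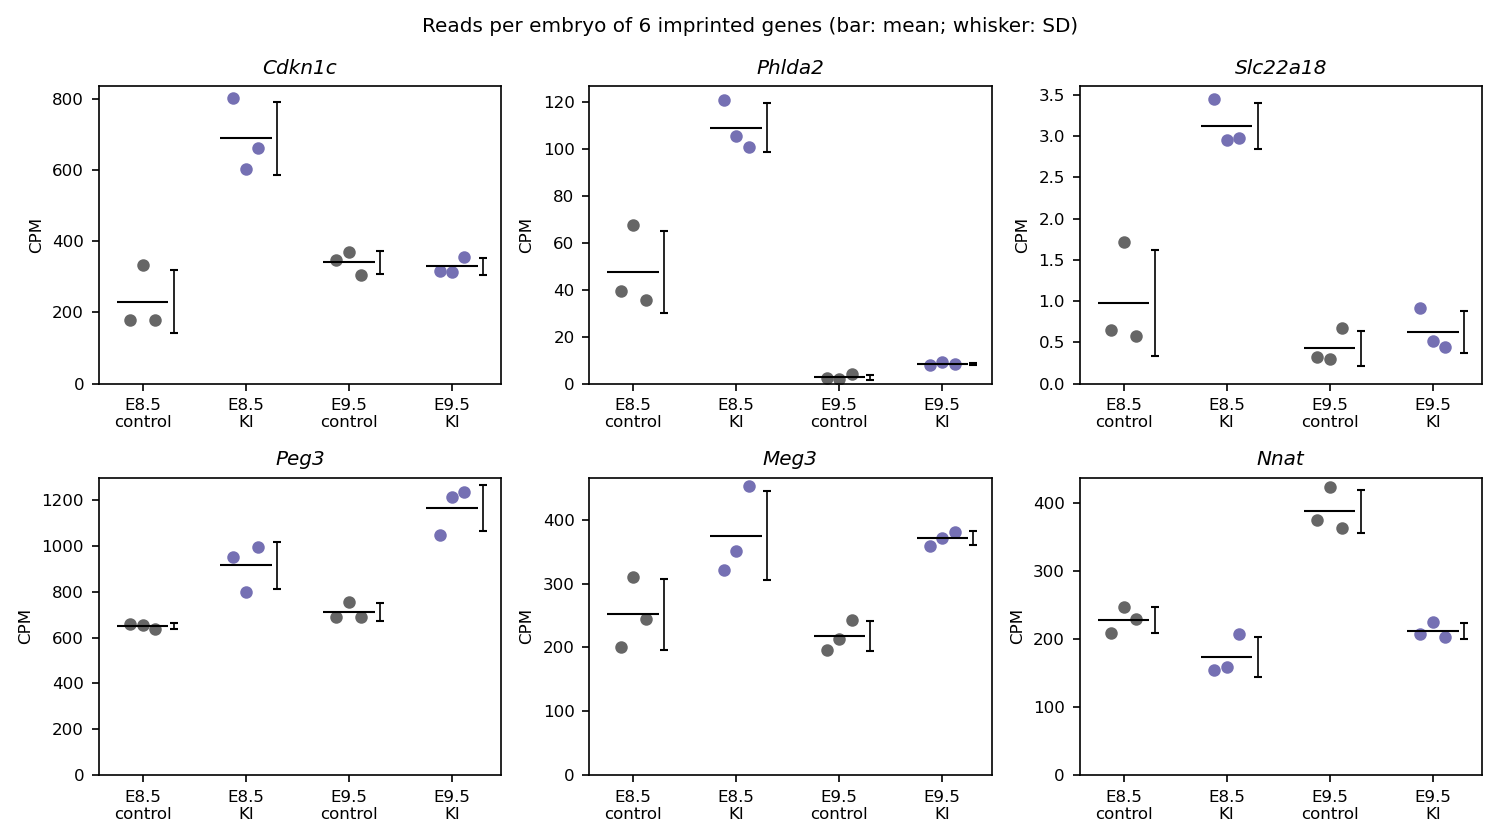
CPM of Cdkn1c, Phlda2, Slc22a18, Peg3, Meg3 and Nnat in each of 12 embryos, with controls in grey, KI in purple, the mean as a bar and the SD (n = 3) as a whisker. KI embryos lie above all controls for Cdkn1c at E8.5 and for Phlda2, Peg3 and Meg3 at both stages, and below them for Nnat at both stages.

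Igf2r on chromosome 17 encodes the receptor that clears IGF2, and Airn is its antisense noncoding RNA. Igf2r fell in neurons from 204 and 219.5 to 85.4 and 75.5 CPM (-1.20 ± 0.09, adjusted p = 1.41e-06) and in ExEn from 969.7 and 970.4 to 317 and 332 (-1.61 ± 0.05, adjusted p = 1.37e-11). In TE it rose from 304 and 289 to 366 and 369 CPM (0.34 ± 0.05, adjusted p = 2.19e-05), and the effects in TE and ExEn differed (1.95 ± 0.06, adjusted p = 9e-11). Of the 36 members, 16 had effects that differed between TE and ExEn, 10 more positive and 6 more negative in TE, beside 35.3%, 18.3% and 17% of all genes. Airn fell in neurons from 4.14 and 4.25 to 0.888 and 1.02 CPM (-1.93 ± 0.19, adjusted p = 1.03e-05) and rose in TE from 6.99 and 4.03 to 7.74 and 8.82 (0.62 ± 0.21, adjusted p = 0.0267), the latter call lost without flox library 2 or clone 48, with transcripts summed and with only the libraries compared. Airn overlaps Igf2r, and without a strand setting their shared reads cannot be told apart. The same limit holds for any reads shared by Usp29 and Peg3, Zrsr1 and Commd1, and Nnat and Blcap.

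Grb10, an adaptor that restrains insulin and IGF signalling, fell in neurons from 266 and 244 to 103 and 75.3 CPM (-1.32 ± 0.12, adjusted p = 5.98e-06), in TE from 467 and 479 to 257 and 269 (-0.81 ± 0.08, adjusted p = 1.11e-05) and in ExEn from 1019.9 and 983 to 490 and 592 (-0.92 ± 0.08, adjusted p = 9.31e-06). In progenitors it held 917 and 906 CPM in flox and 1030 and 1039 in KI (0.22 ± 0.12, adjusted p = 0.27), and the neural days differed (-1.53 ± 0.17, adjusted p = 5.03e-05). Plagl1, a zinc finger transcription factor, rose in progenitors from 239.8 and 238 to 448 and 376 CPM (0.82 ± 0.11, adjusted p = 0.000198) and fell in ExEn from 368 and 348 to 141 and 170.2 (-1.23 ± 0.10, adjusted p = 2.77e-06). Dcn, the gene of the matrix proteoglycan decorin, fell in neurons from 241 and 187 to 85.4 and 50.9 CPM (-1.45 ± 0.24, adjusted p = 0.00221) beside the mesenchymal markers given above. It fell in TE from 1.56 and 1.61 to 0.218 and 0.581 CPM (-1.95 ± 0.43, adjusted p = 0.00183) and rose in ExEn from 5.33 and 6.69 to 13.8 and 21.5 (1.52 ± 0.27, adjusted p = 0.00056). The TE values rest on 38 and 42 reads in flox and 6 and 16 in KI.

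The Prader-Willi cluster on chromosome 7 holds genes of neurons, most of them paternally expressed. All 5 of its listed members rose in neurons by less than 2-fold, where 27.1% of all genes were called higher, and the call of Ube3a was lost with only the libraries compared. Snrpn, a splicing protein gene, went from 622 and 648 to 885 and 904 CPM (0.70 ± 0.09, adjusted p = 8.38e-05), and Ndn rose by 0.68 ± 0.11, Magel2 by 0.51 ± 0.11, Mkrn3 by 0.79 ± 0.12 and Ube3a by 0.40 ± 0.10 on the log2 scale. Nap1l5, a paternally expressed relative of nucleosome assembly proteins, rose from 297 and 288 to 510.4 and 499.5 CPM in neurons (0.99 ± 0.09, adjusted p = 4.69e-06), after falling in progenitors from 5.49 and 6.14 to 3.26 and 3.54 (-0.74 ± 0.11, adjusted p = 0.00041). The sum of 6 neuron markers was 2688 to 2815 CPM in flox neurons and 4358 to 4785 in KI, and 1032 to 1039 and 685 to 771 in progenitors, and its part in these genes was not tested. In ExEn Magel2 fell from 2.42 and 3.98 to 0.375 and 0.505 CPM (-2.88 ± 0.72, adjusted p = 0.00653) and Nap1l5 rose from 2.13 and 1.64 to 3.89 and 6.51 (1.43 ± 0.40, adjusted p = 0.0119). Both ExEn calls were lost without flox library 2, and that of Nap1l5 also without clone 48.

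The members not described so far changed less than 2-fold in the comparisons of KI that called them. Mest, a paternally expressed hydrolase gene, rose in progenitors (0.43 ± 0.11) and E8.5 embryos (0.28 ± 0.07), calls lost without 3 of 4 and 4 of 6 single libraries, and fell in TE (-0.93 ± 0.27, adjusted p = 0.0461), a call lost without any 1 of the 4 libraries and with no filter on low counts. Blcap, Zrsr1 and Impact rose in neurons by 0.37 ± 0.08, 0.63 ± 0.09 and 0.67 ± 0.09, the call of Blcap being lost with only the libraries compared. Blcap was also called higher in TE (43.5 and 41.9 CPM in flox, 55.7 and 45.4 in KI) and ExEn (66.1 and 62.9, 90.0 and 77.3). Both calls were lost without either flox library or clone 27, and that in TE also with DESeq2 and with transcripts summed. Impact rose at E9.5 as well (0.34 ± 0.09), a call lost without KI 2, and fell in TE (-0.20 ± 0.08) and ExEn (-0.25 ± 0.07), calls lost without either flox library or clone 48. Commd1 and Gnas fell in TE (-0.48 ± 0.15 and -0.16 ± 0.04), calls lost without flox library 1 and, for Commd1, without clone 27. Gnas has 9 transcripts in the tables, and its value does not separate imprinted from other transcripts.

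The levels of the members in flox cells were also compared between cultures. Between neural days 16 and 8, 27 of 36 differed, a share near that of all genes (75%, beside 77.1%), 18 higher and 9 lower (38.4% and 38.7% of all) and 20 at least 2-fold (42.3%), with Dcn (7.75 ± 0.36) and Nap1l5 (5.68 ± 0.11) the farthest above and Phlda2 (-2.09 ± 0.42) the farthest below their day 8 levels. Between TE and ExEn 30 differed (83.3%, beside 64.7%), 6 higher and 24 lower in TE (32.2% and 32.5% of all) and 20 at least 2-fold (26.7%), with Dlk1 at -3.13 ± 0.33 and Phlda2 at 3.79 ± 0.16. Between E9.5 and E8.5 controls 12 differed (33.3%, beside 24.2%), 5 higher and 7 lower (12.2% and 12.1% of all) and 3 at least 2-fold (6.72%), and Phlda2 stood at -4.24 ± 0.33. Compared per length by the deposited RPKM values, Gnas (60.3), Commd1 (46.2) and Snrpn (29.6) had the highest levels of the members in flox ESCs. Igf2 (1719) and Dlk1 (1006) led at EB day 10, Nnat (918) and Gnas (890.4) in flox neurons, and Igf2 in flox TE (371) and ExEn (483). In KI TE and ExEn the highest was Peg10 (529 and 679).

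Genes that set or keep imprints were counted beside the members. Of 19 such genes, 17 or 19 were tested, and 3 were higher and 0 lower in progenitors, 8 and 3 in neurons, 5 and 10 in TE, 3 and 8 in ExEn, 1 and 1 at E8.5 and 2 and 6 at E9.5. These counts, and those of the next list, stand beside the shares of all genes given with the parental copies. Between the clones 0 of 19 were called, and 0 in the EB course. Zfp57 stood at 465 to 469.7 CPM in the ESC libraries of flox and both clones. Dnmt3l, a cofactor of DNA methyltransferases in germ cells, fell in TE (-1.82 ± 0.13, adjusted p = 1.7e-07) and ExEn (-3.64 ± 0.23, adjusted p = 7.88e-08). Of 25 further imprinted genes, 20 to 23 were tested, and 0 were higher and 5 lower in progenitors, 7 and 7 in neurons, 4 and 4 in TE, 4 and 5 in ExEn, 2 and 2 at E8.5 and 4 and 5 at E9.5. Asb4 (-4.19 ± 0.16, adjusted p = 3.3e-08) and Calcr (-3.12 ± 0.24, adjusted p = 2.95e-06), neighbours of Peg10, fell most in progenitors. Sfmbt2, a Polycomb gene of the placenta, rose most in ExEn (1.96 ± 0.28, adjusted p = 0.00648), and Dio3, at the end of the Dlk1-Meg3 cluster, rose most in TE (2.48 ± 0.42, adjusted p = 0.000219).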

How the data were processed

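RNA libraries of 37 samples were analysed, and the other 63 of the 100 samples are not analysed here. Per the labels' protocols, poly(A) RNA was selected and libraries were made with an NEBNext kit, while the molecule is labelled poly(A) RNA for 17 libraries (ESC, EB, neural) and total RNA for 20 (TE, ExEn, embryos). Per the file headers, each of the deposited tables holds 29082 transcripts, with raw counts of reads and RPKM in separate columns. RPKM was used here only to compare genes per length. The submitters' processing notes name bcl2fastq, STAR, Bowtie2, SICER 1.1 and build mm9 without their roles, and the strand setting of the counting is not given in the sources used here. A symbol was matched to 28436 transcripts, and 646 stayed under their accession. Gene-level totals were 18.9 to 25.8 M reads (M, 1000000) in ESC and EB libraries, 20.1 to 26.9 in embryos, 19.6 to 27.6 in TE and ExEn and 39.0 to 59.9 in neural libraries, so that 3 reads, the limit allowed by a count of 0, equal 0.05 to 0.16 CPM. This limit covers counting error only.

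The counts as deposited were fitted with edgeR 4.0.16 in R 4.3.3 (TMM, filterByExpr, robust quasi-likelihood test), separately for neural, extraembryonic, embryo, EB course and clone fits. Adjustment was by Benjamini-Hochberg over all tested genes with a threshold of 0.05, and the SE was derived from the F statistic. Alternatives were DESeq2 1.42.0, its size factors in edgeR, no filter on low counts, summed transcripts, only the libraries compared, only libraries of 1 RNA label for the clones, a replicate block and leaving out libraries, and each clone alone in the EB course, added after seeing the data. The scripts were tested on simulated data.

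The members and lists were chosen with earlier results of these data known. A member was given its values where it was called with at least a 2-fold change in a KI comparison or between clones, others by counts or as cluster neighbours, and other lists by their largest calls. The labels do not say that flox replicates came from separate cultures, so p-values measure the spread between these samples, which may be technical. Embryos of the same number deviated together at E8.5 (correlations of 0.298, 0.349 and 0.151). At E9.5 the correlations of same-numbered embryos ran from -0.005 to 0.174, and those of KI and control embryos with other numbers from -0.174 to -0.033. The main embryo fit left the numbers out at both stages, and the fit with the block used them at both. The embryo calls are thus unpaired unless the block is named. KI clones are the same lines in both neural and both extraembryonic cultures (correlations of 0.275 and 0.252).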

Additional observations from a re-analysis of the deposited data

Results flagged for a closer look

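The effect of KI was compared between neural day 16 and day 8, between TE and ExEn, and between embryos of E9.5 and E8.5. The values below are differences of log2 fold changes that passed the test of the difference itself (edgeR, adjusted p under 0.05) and reached 2-fold in size.

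Between neural days, 11 of the 25 members called reached 2-fold (13.3% of all genes). The effect was more positive in neurons for Nap1l5 (1.73), Usp29 (1.57), Peg3 (1.24), Magel2 (1.17), Rtl1 (1.14) and Mkrn3 (1.08). It was more negative in neurons for Slc38a4 (-1.99), Dcn (-1.72), Grb10 (-1.53), Airn (-1.50) and Igf2r (-1.04). The call of Dcn was lost without any 1 of 5 libraries and with no filter on low counts, and that of Rtl1 without any 1 of 3.

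Between TE and ExEn, 10 of the 16 members called in the fit without a replicate block reached 2-fold (13.2% of all genes). The effect was more positive in TE for Magel2 (3.77), Igf2r (1.95), Usp29 (1.54), Cdkn1c (1.53) and Airn (1.09), and more negative for Dcn (-3.47), Phlda2 (-1.80), Slc22a18 (-1.35), Nnat (-1.31) and Ppp1r9a (-1.22). Magel2 stood at 0.218 to 1.52 CPM and Dcn at 0.218 to 1.61 CPM in TE libraries. The calls of Cdkn1c, Magel2, Slc22a18, Usp29 and Airn were lost without single libraries, and that of Cdkn1c also with no filter on low counts. The KI clones are the same lines in TE and ExEn. With the replicate number as a block, Meg3 (-2.29) and Rtl1 (-3.36) were also called and exceeded 2-fold. Clone 48 had 0 reads of both genes in TE and ExEn, so their KI values rest on the other clone alone.

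Between embryo stages, 1 of the 3 members called reached 2-fold, Cdkn1c (-1.63), which was higher in KI at E8.5 and not called at E9.5. This call was lost with the embryo number as a block and without any 1 of 9 embryos.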

How the results depend on the processing

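Of the counts of members called, those with at least a 2-fold change were 4 in progenitors, 8 in neurons, 7 in TE, 12 in ExEn, 3 at E8.5, 1 at E9.5, 11 for the neural difference, 10 for TE against ExEn, 1 for the embryo difference and 3 between control stages. Fitting only the libraries compared gave 5 at E8.5 in place of 9, and DESeq2 gave 1 in the EB course in place of 0. The cause was not tested.

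Leaving out 1 library gave 9 to 13 calls in progenitors, 20 to 22 in neurons, 15 to 18 in TE, 13 to 22 in ExEn, 4 to 9 at E8.5, 11 to 14 at E9.5 and 0 in the EB course. Leaving out a whole day gave 0 to 1 in the EB course (Phlda2 without day 10, -1.44, adjusted p = 0.0231), and leaving out a whole culture gave 2 to 2 between clones. For the differences, leaving out 1 library gave 20 to 24 (neural), 11 to 19 (TE against ExEn) and 0 to 4 (embryos), and 26 to 28, 28 to 29 and 11 to 16 within flox or control. The lowest counts came without flox library 2 or clone 48 in progenitors (9), without flox library 2 in ExEn (13) and without control embryo 3 at E8.5 (4). The embryo difference fell to 0 without E8.5 control 3, E9.5 control 1 or E9.5 KI 2. Without single libraries, Meg3 ran from -5.72 to 0.063 in progenitors and from -7.76 to 1.68 in neurons, and Rian from -6.19 to 1.94 in neurons, turning in direction without clone 48 in progenitors and without clone 27 in neurons. Of single members' values, 661 kept direction and call under the other settings and 32 lost the call, and on leaving out libraries 537 kept both and 138 lost the call.

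With the replicate number as a block, the counts were 11 at E8.5, 14 at E9.5, 27, 18 and 3 for the neural, TE against ExEn and embryo differences, and 27 and 34 for neural days and for TE against ExEn in flox. The block added Meg3 and Airn (-0.64, adjusted p = 0.049) at E8.5 and removed Slc38a4 at E9.5 (0.36, adjusted p = 0.115). For the differences it added Dlk1 (-0.99), Kcnq1ot1 (0.42), Meg3 (-2.29), Rtl1 (-3.36) and Nnat (-0.47) and removed Cdkn1c. Clone 48 had 0 reads of Meg3 and Rtl1 in TE and ExEn. On the KI side the values of Meg3 and Rtl1 thus rest on clone 27 alone, with 6 Rtl1 reads in TE. In flox TE against ExEn it added Meg3 (-0.59), Rian (-1.25), Rtl1 (-1.58) and Cdkn1c (0.69). It changed no other call. With 0.1 or 1 CPM added in place of 0.5, 8 or 6 members in place of 7 were at least 2-fold from flox in both clones in ESCs, the EB day counts stayed at 5 and 2, and 136 or 118 ratios of a clone to flox in place of 124 reached 2-fold. Between clones 2 members were called in libraries of either RNA label.

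KI cultures hold 2 clones and flox ESC and EB days 1 library, so effects of KI and of a clone cannot be told apart beyond these lines. Members with few reads (Slc22a18, Phlda2, Magel2 and Dcn in some cultures) are limited by depth.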
